A study of Mus musculus with 8 samples.

Results

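The genes examined here encode proteins of the lipid droplet, the organelle in which cells store triglyceride: the CIDE proteins Cidea, Cideb and Cidec, the perilipins Plin2 and Plin4, the FIT proteins Fitm1 and Fitm2, the triglyceride lipase Pnpla2 (ATGL) and its inhibitor G0s2. Of these 9 genes, 8 had a probe set that the array annotation assigned to them alone and were followed among 12393 genes tested, while Fitm2 was not analysed here. Each gene was read from its brightest probe set on average. Pnpla2 had 2 probe sets of its own and each of the others 1.

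Expression was measured in mouse liver on 8 Affymetrix arrays, 2 for each of 4 genotypes on a C57BL background. These were wild-type mice, SHP-/- mice (SHP knockout), OB-/- mice (leptin knockout) and OB-/-/SHP-/- mice (leptin/SHP double knockout), all fed standard chow. SHP, encoded by Nr0b2, is a nuclear receptor that lacks a DNA-binding domain and represses other receptors, and leptin is the fat-derived hormone whose loss causes obesity and fatty liver. The labels give neither age nor sex, name no separate animals, and do not say which exons the knockouts lack. The p-values set a difference against the gaps between the 2 arrays of each genotype, pooled over all 4 genotypes. This spread is also drawn toward that of all genes by the fit. The gaps may be technical, so the p-values need not reflect variation between animals. In whole liver, more cells of a type and more RNA per cell cannot be told apart.

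Neutral lipid made in the endoplasmic reticulum buds into droplets with the help of FIT proteins. Perilipins coat the droplet and govern access of lipases, of which ATGL starts triglyceride breakdown and is held back by G0S2. CIDE proteins gather where droplets touch and let lipid pass from smaller to larger droplets, and CIDEB also takes part in the lipidation of very low density lipoprotein in hepatocytes. Cidea is best known from brown fat and Cidec (also called Fsp27) from white fat, and both are known to appear in fatty mouse liver as targets of the nuclear receptor PPAR gamma.

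The sequences before the transcription starts of Cidec, Plin4 and Fitm1 are shown because these genes rose with leptin loss (below), and that of Plin2 because it is a perilipin that did not pass the test. Each runs from 250 bases before the start to 10 bases after it and comes from RefSeq, mouse build GRCm38.p6. Windows of 300 bases in all were found for each of the 9 genes but Cidea, and Cidec had 2, of which the one farther upstream is printed. The stretches are Cidec chr6:113435751-113436010 on the minus strand, Plin4 chr17:56109773-56110032 on the minus strand, Fitm1 chr14:55575424-55575683 on the plus strand and Plin2 chr4:86670050-86670309 on the minus strand. Capitals mark matches to the motifs searched.
Cidec: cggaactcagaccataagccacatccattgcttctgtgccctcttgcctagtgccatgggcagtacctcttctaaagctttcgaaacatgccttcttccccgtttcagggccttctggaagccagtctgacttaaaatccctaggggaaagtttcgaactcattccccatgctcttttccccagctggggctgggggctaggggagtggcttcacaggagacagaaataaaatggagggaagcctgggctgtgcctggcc
Plin4: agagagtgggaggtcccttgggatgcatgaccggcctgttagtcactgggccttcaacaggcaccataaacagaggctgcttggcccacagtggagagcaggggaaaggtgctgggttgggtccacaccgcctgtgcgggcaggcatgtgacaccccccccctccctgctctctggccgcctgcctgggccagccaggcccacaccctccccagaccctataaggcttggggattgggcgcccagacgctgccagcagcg
Fitm1: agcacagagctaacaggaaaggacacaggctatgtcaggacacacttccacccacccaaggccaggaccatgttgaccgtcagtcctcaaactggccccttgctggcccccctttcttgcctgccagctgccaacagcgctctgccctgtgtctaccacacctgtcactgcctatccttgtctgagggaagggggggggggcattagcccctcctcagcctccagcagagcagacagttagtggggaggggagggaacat
Plin2: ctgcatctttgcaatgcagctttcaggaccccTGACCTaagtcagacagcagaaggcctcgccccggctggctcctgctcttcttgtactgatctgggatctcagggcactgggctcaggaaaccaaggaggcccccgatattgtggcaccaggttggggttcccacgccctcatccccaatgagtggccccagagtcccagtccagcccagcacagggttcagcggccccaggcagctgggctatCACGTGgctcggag

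The motifs, searched on both strands, were the PPAR-RXR element, made of 2 copies of AGGTCA with 1 base between them, a single AGGTCA (which the longer motif contains), the sterol element TCACNCCAC, the E-box CACGTG and TATAAA. Plin2 held a single AGGTCA on the opposite strand starting at -218 and an E-box starting at -4 from its transcription start, and Cideb held TATAAA at -172. Neither Cidec window held any of the 5 motifs, nor did the windows of Plin4, Fitm1, Fitm2, Pnpla2 and G0s2. Over 32851 windows of all genes, 0.0396% held the full PPAR-RXR element, 16.3% a single AGGTCA, 1.24% the sterol element, 7.15% the E-box and 13.6% TATAAA. In the RefSeq gene table, Plin4 lies next to Plin5 and overlaps Hdgfl2, and Cideb overlaps its neighbours Nop9 and Ltb4r2.

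The arrays had medians of 5.45 to 5.56 on the log2 scale. Nr0b2, the gene deleted in the SHP knockouts, read 8.74 and 8.71 on the wild-type arrays, 7.78 and 8.31 on the SHP-/- ones, 8.01 on both OB-/- ones and 7.11 and 6.66 on the double knockout ones. Its mean was lower with SHP loss on both leptin backgrounds without dropping to the low end of the table. By the test described below, OB-/-/SHP-/- minus OB-/- passed (-1.13, limma adjusted p = 0.0108) and SHP-/- minus wild-type did not (-0.68, limma adjusted p = 0.286). Nr0b2 was also lower with leptin loss where SHP was present (OB-/- minus wild-type -0.72, limma adjusted p = 0.0258). Whether its probes lie in the deleted part is not known here. Lep lay between 3.16 and 3.53 on all 8 arrays. OB-/- replicate 1 stood apart by Xist (7.41, against 4.31 to 4.70 elsewhere) and SHP-/- replicate 1 by Fos (11.95, against 5.17 to 6.98). Values without both of these arrays are given where they end a call. RNA quality moved with genotype: the 3' over 5' offset of Gapdh, which grows as RNA degrades, averaged 0.90 on wild-type arrays, 0.27 on SHP-/- arrays, -0.04 on OB-/- arrays and 0.07 on double knockout arrays. Its part in the results was not tested. Albumin (Alb), which defines hepatocytes, was between 13.87 and 14.07 on all arrays, near the top of the scale, while 3 of 6 hepatocyte markers (Tat, Cps1 and Hnf4a) fell in OB-/- against wild-type by 0.65, 0.51 and 0.76. By the test described below, 9.36% of all genes fell in that comparison.

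Cidea, Cidec, Plin4 and Fitm1 rose with leptin loss whether SHP was present or absent, while Cideb and Plin2 passed in no comparison. In OB-/- minus wild-type, 4 of the 8 measured genes rose (Cidea, Cidec, Plin4 and Fitm1) and 0 fell, where 16.9% of all genes passed, 7.58% upward and 9.36% downward. In OB-/-/SHP-/- minus SHP-/-, which shares no array with it, 6 of 8 rose (the same 4 with Pnpla2 and G0s2), and 0 fell, against 10.6% of all genes, 4.95% upward and 5.62% downward. Among leptin-null mice, some levels were lower where SHP was absent: in OB-/-/SHP-/- minus OB-/-, 3 of 8 fell (Cidea, Cidec and Fitm1) and 0 rose, against 2.14% of all genes, 0.88% downward and 1.26% upward. In leptin-intact mice, SHP-/- minus wild-type, limma called 0 of 8, against 0.323% of all genes, 0.226% upward and 0.0968% downward, and 2 of 8, Fitm1 and G0s2, had an unadjusted p below 0.05. A gene was called at a Benjamini-Hochberg adjusted p below 0.05 in a limma fit over all genes. Counts at an unadjusted p below 0.05 are given without a share over all genes and are description only. The median difference of the 8 genes was 1.56 with leptin loss in the presence of SHP, 1.52 in its absence, -0.46 with SHP loss in leptin-null and -0.35 in leptin-intact mice, on the log2 scale. Over all genes these medians were -0.01, 0.03, 0.01 and -0.03.

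**Figure D1:**
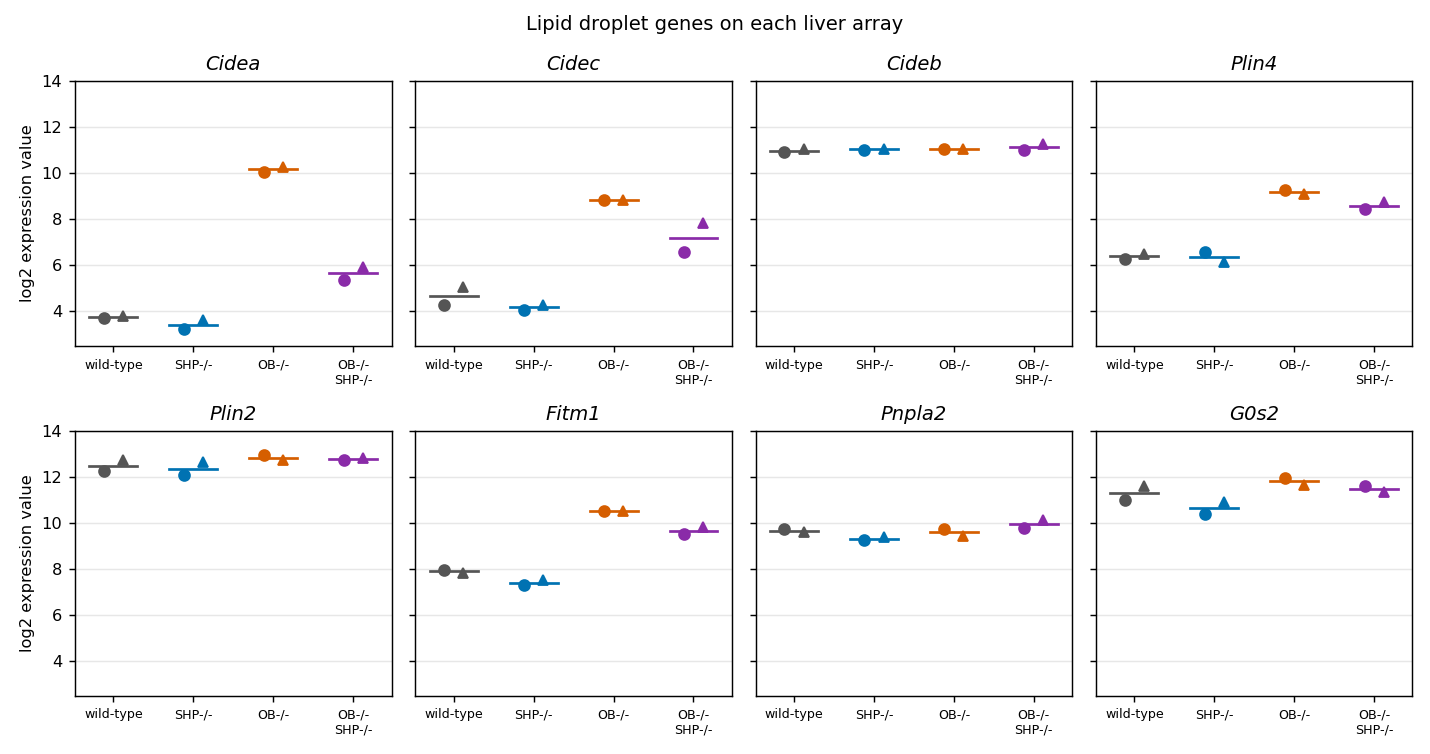
Log2 expression values (vertical axis, the same in all panels) of 8 lipid droplet genes on each array, by genotype; circles are replicate 1, triangles replicate 2 and bars the mean of both. Cidea, Cidec, Plin4 and Fitm1 are lowest in wild-type and SHP-/-, highest in OB-/- and between in OB-/-/SHP-/-, while Cideb stays between 10.92 and 11.25.

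Cidea, which promotes droplet enlargement, moved most. It read 3.73 and 3.82 on the wild-type arrays, 3.22 and 3.63 on the SHP-/- ones, 10.07 and 10.27 on the OB-/- ones and 5.35 and 5.95 on the double knockout ones. No genotypes overlapped, and both lean genotypes lay near the low end of the table, whose values run from 2.20 to 14.19, so its folds are set against dim values. Cidea rose 84.5-fold in OB-/- against wild-type (6.40 ± 0.20 on the log2 scale, moderated SE, n = 2 arrays per genotype, limma adjusted p = 1.05e-08), the second largest rise among the 12393 genes. With SHP absent it rose 4.69-fold (2.23 ± 0.20, limma adjusted p = 5.72e-05). It fell 23.0-fold in OB-/-/SHP-/- against OB-/- (-4.52 ± 0.20, limma adjusted p = 3.41e-07), the largest fall of any gene in that comparison. In leptin-intact mice SHP-/- minus wild-type was -0.35 ± 0.20 (limma adjusted p = 0.822). The Cidea calls held with any single array left out.

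Cidec, the CIDE protein of white fat that drives formation of a single large droplet, followed with more scatter. It read 4.29 and 5.08 on the wild-type arrays, 4.06 and 4.29 on the SHP-/- ones, 8.85 on both OB-/- ones and 6.57 and 7.82 on the double knockout ones. The double knockout arrays lay 1.25 apart, between OB-/- and the lean genotypes, and wild-type and SHP-/- overlapped. Cidec rose 17.9-fold in OB-/- against wild-type (4.17 ± 0.34, limma adjusted p = 1.83e-05) and 8.11-fold with SHP absent (3.02 ± 0.34, limma adjusted p = 2.86e-04). Its fall in OB-/-/SHP-/- against OB-/- was 3.14-fold (-1.65 ± 0.34, limma adjusted p = 0.0301). That call was lost without OB-/- replicate 1 (adjusted p = 0.189), OB-/- replicate 2 (0.219) or OB-/-/SHP-/- replicate 1 (0.0986, with a difference of -1.03), under robust eBayes (0.12) and without both arrays that stood apart (0.149). SHP-/- minus wild-type was -0.51 ± 0.34 (limma adjusted p = 0.867).

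Cideb, the CIDE protein of normal hepatocytes, held its level. It read 10.92 and 11.03 on the wild-type arrays, 11.01 and 11.06 on the SHP-/- ones, 11.07 and 11.05 on the OB-/- ones and 11.01 and 11.25 on the double knockout ones. Its whole range over 8 arrays was 0.33, at the 12.3 percentile of the ranges of all genes. No comparison passed: OB-/- minus wild-type was 0.09 (95% interval -0.22 to 0.39) and OB-/-/SHP-/- minus OB-/- was 0.07 (-0.23 to 0.37). Its probe set is of the s_at type, whose probes can match more than 1 transcript.

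Plin4, a perilipin abundant on white fat droplets, rose with leptin loss both with and without SHP. It read 6.28 and 6.50 on the wild-type arrays, 6.57 and 6.17 on the SHP-/- ones, 9.26 and 9.10 on the OB-/- ones and 8.46 and 8.73 on the double knockout ones. The lean genotypes overlapped each other and every leptin-null array lay above them. Plin4 rose 6.92-fold in OB-/- against wild-type (2.79 ± 0.17, limma adjusted p = 1.78e-06) and 4.68-fold with SHP absent (2.23 ± 0.17, limma adjusted p = 1.43e-05). The double knockout arrays were both below the OB-/- arrays, by -0.58 ± 0.17, and that difference did not pass (limma adjusted p = 0.149). SHP-/- minus wild-type was -0.02, with a 95% interval of -0.40 to 0.36.

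Plin2 (adipophilin), the main perilipin of hepatocytes, was bright on every array. It read 12.25 and 12.72 on the wild-type arrays, 12.08 and 12.62 on the SHP-/- ones, 12.93 and 12.72 on the OB-/- ones and 12.75 and 12.83 on the double knockout ones. Both leptin-null genotypes lay above both lean ones without overlap, but the differences below were smaller than the gaps of 0.46 between the wild-type and 0.54 between the SHP-/- replicates. OB-/- minus wild-type was 0.34 (95% interval -0.10 to 0.78, limma adjusted p = 0.299) and OB-/-/SHP-/- minus SHP-/- was 0.44 (-0.0036 to 0.88, limma adjusted p = 0.198). OB-/-/SHP-/- minus OB-/- was -0.04 (-0.48 to 0.41).

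Fitm1, an endoplasmic reticulum protein that binds triglyceride during droplet formation and is best known from skeletal muscle, rose with leptin loss and fell in part with SHP loss. It read 7.94 and 7.85 on the wild-type arrays, 7.29 and 7.52 on the SHP-/- ones, 10.50 and 10.52 on the OB-/- ones and 9.50 and 9.83 on the double knockout ones. No genotypes overlapped. Fitm1 rose 6.14-fold in OB-/- against wild-type (2.62 ± 0.15, limma adjusted p = 1.15e-06) and 4.79-fold with SHP absent (2.26 ± 0.15, limma adjusted p = 4.6e-06). It fell 1.80-fold in OB-/-/SHP-/- against OB-/- (-0.85 ± 0.15, limma adjusted p = 0.0137). That call was lost without OB-/- replicate 1 (adjusted p = 0.11), OB-/- replicate 2 (0.129), OB-/-/SHP-/- replicate 1 (0.0817) or both arrays that stood apart (0.1). Both SHP-/- arrays lay below both wild-type arrays, by -0.49 ± 0.15, which did not pass (limma adjusted p = 0.378).

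Pnpla2, the lipase that takes the first fatty acid from triglyceride, passed in a single comparison among the 4. It read 9.73 and 9.59 on the wild-type arrays, 9.25 and 9.38 on the SHP-/- ones, 9.74 and 9.44 on the OB-/- ones and 9.80 and 10.12 on the double knockout ones. SHP-/- was lowest and OB-/-/SHP-/- highest, while OB-/- overlapped wild-type. Pnpla2 rose 1.56-fold in OB-/-/SHP-/- against SHP-/- (0.64 ± 0.16, limma adjusted p = 0.027), and OB-/- minus wild-type was -0.07 ± 0.16 (limma adjusted p = 0.834). The further probe set read between 3.29 and 4.01 on all arrays, and by it OB-/-/SHP-/- minus SHP-/- was 0.31 (adjusted p = 0.407). The rise was also lost with the mean of both probe sets (0.113), in a fit to the 4 arrays compared (0.0685) and without either SHP-/- array (0.118 and 0.0624), OB-/-/SHP-/- replicate 2 (0.175) or both arrays that stood apart (0.146).

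G0s2, the protein that inhibits this lipase, was lowest in SHP-/-. It read 11.01 and 11.61 on the wild-type arrays, 10.39 and 10.92 on the SHP-/- ones, 11.95 and 11.66 on the OB-/- ones and 11.58 and 11.35 on the double knockout ones. OB-/- lay above every other genotype, and OB-/-/SHP-/- overlapped wild-type. G0s2 rose 1.75-fold in OB-/-/SHP-/- against SHP-/- (0.81 ± 0.22, limma adjusted p = 0.0423), a call lost under 9 of its 18 alternatives (adjusted p up to 0.267). Among these were leaving out either OB-/- array (0.06 for each), OB-/-/SHP-/- replicate 1 (0.139) or 2 (0.0943) or SHP-/- replicate 1 (0.223), and leaving out both arrays that stood apart (0.267). OB-/- minus wild-type was 0.50 ± 0.22 (limma adjusted p = 0.167), and SHP-/- minus wild-type was -0.65 ± 0.22 (limma adjusted p = 0.469).

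**Figure D2:**
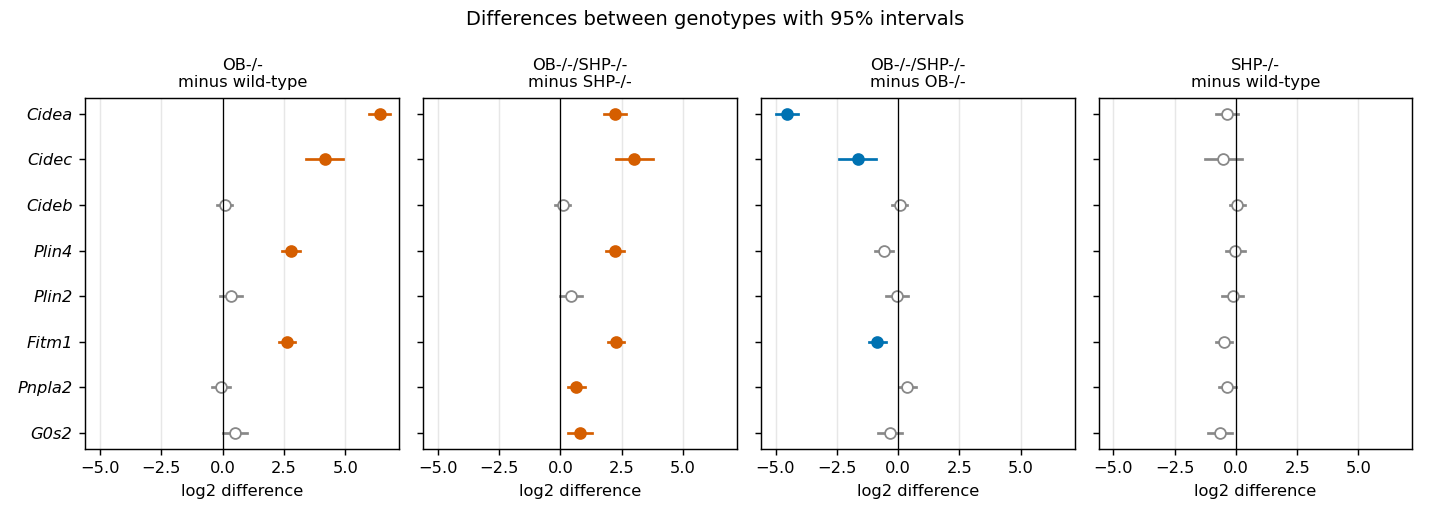
Log2 differences (horizontal axis) of 8 lipid droplet genes in 4 comparisons between genotypes, with 95% intervals from the limma fit; filled points passed the test over all genes (orange up, blue down) and open points did not. Filled points are 4 with leptin loss in the presence of SHP, 6 in its absence, 3 with SHP loss in leptin-null mice and 0 with SHP loss in leptin-intact mice.

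The interaction asked whether SHP loss acted differently in leptin-null and in leptin-intact mice, which is the same as asking whether leptin loss acted differently without SHP. Of the 8 genes, Cidea alone passed, at -4.17 ± 0.29 (limma adjusted p = 4.63e-05), against 0.549% of all genes, 0.194% downward and 0.355% upward. Its leptin-intact means, 3.77 in wild-type and 3.42 in SHP-/-, lay at the 14.8 and 9.07 percentiles of all genes, so a large fall could not have been seen there and the size of the interaction is limited by that low end. In OB-/-/SHP-/- against wild-type, Cidea was 1.88 ± 0.20, Cidec 2.51 ± 0.34, Plin4 2.21 ± 0.17 and Fitm1 1.77 ± 0.15 higher, each a rise past the threshold by limma, where 15.9% of all genes passed, 7.6% upward and 8.25% downward. The other 4 genes did not pass there. The interactions of Cidec (-1.15, 95% interval -2.20 to -0.09), Plin4 (-0.56, -1.10 to -0.03) and Pnpla2 (0.71, 0.22 to 1.21) had intervals that left out 0 before adjustment and did not pass over all genes (adjusted p = 0.551, 0.562 and 0.321). That of Fitm1 was -0.36 (-0.83 to 0.11).

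**Figure D3:**
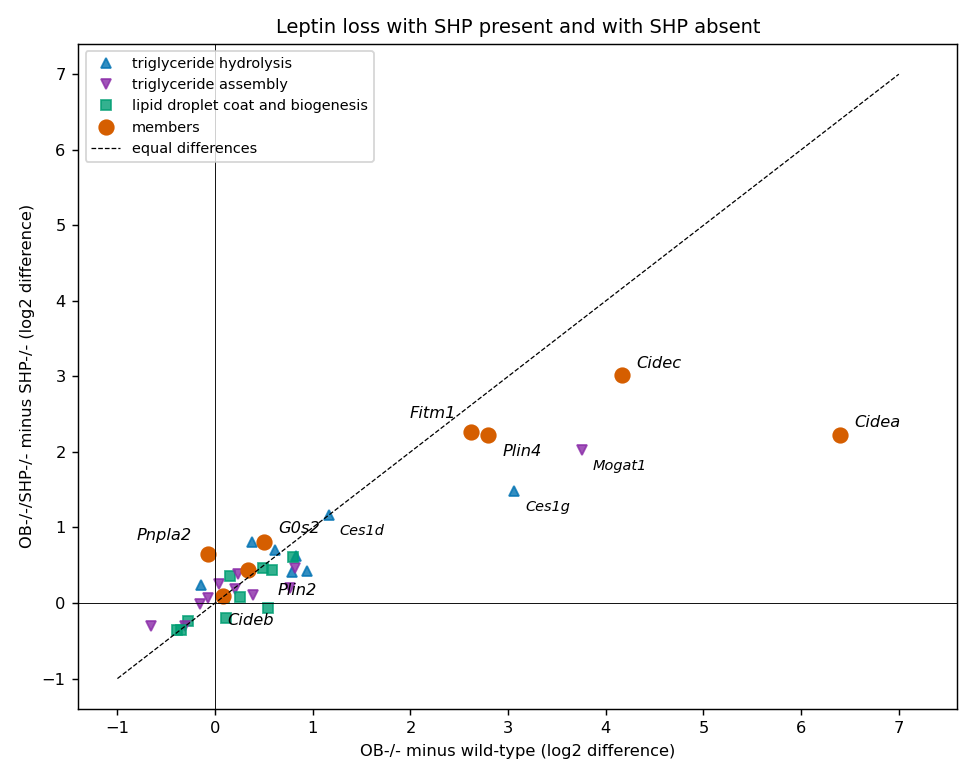
Log2 difference with leptin loss in the presence of SHP (horizontal axis) and in its absence (vertical axis) for 8 lipid droplet genes (orange) and 30 genes of 3 related lists; the dashed line marks equal differences, and the axes share no array. Cidea lies farthest below the line, at 6.40 and 2.23, with Mogat1 and Ces1g also below it.

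The further genes of the droplet coat and of droplet formation moved less with leptin loss than Cidea, Cidec, Plin4 and Fitm1. Of 14 listed, 11 were measured, 4 rose in OB-/- against wild-type and 0 fell, with a median difference of 0.15, where 7.58% of all genes rose and 9.36% fell. Plin5, the perilipin that ties droplets to mitochondria, rose by 0.79 ± 0.18 (limma adjusted p = 0.0125) and seipin (Bscl2) by 0.58 ± 0.14. Hsd17b13, a droplet protein of hepatocytes, rose by 0.49 ± 0.14 but was dim, between 4.11 and 4.74 on all 8 arrays. Pcyt1a, which supplies phosphatidylcholine to growing droplets, rose by 0.55 ± 0.16. The count was 0 without OB-/- replicate 1 or wild-type replicate 2, 1 without OB-/- replicate 2, 2 without wild-type replicate 1 and 0 without both arrays that stood apart. For OB-/-/SHP-/- minus SHP-/- and OB-/-/SHP-/- minus OB-/-, limma called 0 of 11, where 10.6% and 2.14% of all genes passed. Of the 11, 5 and 2 had an unadjusted p below 0.05, and eBayes with trend called up to 3 in the former. Plin5 read 8.61 and 8.53 on the wild-type arrays, 8.95 and 9.45 on the SHP-/- ones, 9.54 and 9.18 on the OB-/- ones and 9.88 and 9.75 on the double knockout ones. So it was highest in the double knockout, unlike its chromosomal neighbour Plin4, although OB-/-/SHP-/- minus OB-/- did not pass (0.45 ± 0.18, limma adjusted p = 0.335). In that comparison Hsd17b11, Rab18 and Bscl2 differed by -0.09, -0.10 and -0.14. In OB-/-/SHP-/- minus wild-type, 3 of the 11 rose, Plin5 among them (1.25 ± 0.18, limma adjusted p = 0.00115), and 1 fell. Of all genes 7.6% rose and 8.25% fell there. A fit to only the arrays compared called 2 of the 11.

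Among enzymes of triglyceride hydrolysis, 8 of 10 listed were measured, and 6 rose in OB-/- against wild-type (median 0.81, where 7.58% of all genes rose) and 5 in OB-/-/SHP-/- against SHP-/- (median 0.66, where 4.95% of all genes rose), with 0 falls in either. The carboxylesterase Ces1g rose 8.35-fold in OB-/- (3.06 ± 0.17, limma adjusted p = 8.05e-07), Ces1d, a triglyceride hydrolase of the endoplasmic reticulum, 2.24-fold, the lysosomal lipase Lipa 1.92-fold and Abhd5 (CGI-58), the coactivator of ATGL, 1.78-fold. The count with SHP absent was 3 without OB-/-/SHP-/- replicate 2 or SHP-/- replicate 1, and 2 without both arrays that stood apart. Ces1g read 7.68 and 7.54 on the wild-type arrays, 8.79 and 8.89 on the SHP-/- ones, 10.74 and 10.60 on the OB-/- ones and 10.56 and 10.07 on the double knockout ones. It was thus higher in SHP-/- than in wild-type (a rise of 1.23 ± 0.17, limma adjusted p = 0.0105) but not in the double knockout against OB-/-, and its interaction was -1.59 ± 0.24 (limma adjusted p = 0.0118). Leaving out a wild-type array, or both arrays that stood apart, ended the last 2 calls, and leaving out an OB-/- array ended the interaction (adjusted p up to 0.176 and 0.116). Carboxylesterase genes are near copies of one another, so its probes may read relatives. For SHP loss in leptin-null mice, limma called 0 of 8 with 1 at an unadjusted p below 0.05, where 2.14% of all genes were called. There Ces1d, Aadac and Mgll differed by -0.22, -0.48 and -0.10.

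Among enzymes of triglyceride assembly, 11 of 12 listed were measured and 3 rose and 0 fell in OB-/- against wild-type (median 0.20), where 7.58% of all genes rose and 9.36% fell. Mogat1, which acylates monoacylglycerol, rose 13.5-fold (3.76 ± 0.25, limma adjusted p = 2.85e-06) and the acyltransferase Gpam by 0.77 ± 0.16. Mogat2 rose by 0.82 ± 0.22 but was dim, between 4.32 and 5.39 on all 8 arrays. The count was 1 without OB-/- replicate 1 or wild-type replicate 2, where Gpam and Mogat2 were lost, and 1 without both arrays that stood apart. Mogat1 read 4.66 and 5.01 on the wild-type arrays, 4.87 and 4.54 on the SHP-/- ones, 8.68 and 8.50 on the OB-/- ones and 6.30 and 7.17 on the double knockout ones, the order seen for Cidec. It was the single list gene to fall in OB-/-/SHP-/- against OB-/- (-1.85 ± 0.25, limma adjusted p = 0.00261) and the single gene of its own list to rise in OB-/-/SHP-/- against SHP-/- (2.03 ± 0.25, limma adjusted p = 4.87e-04).

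**Figure D4:**
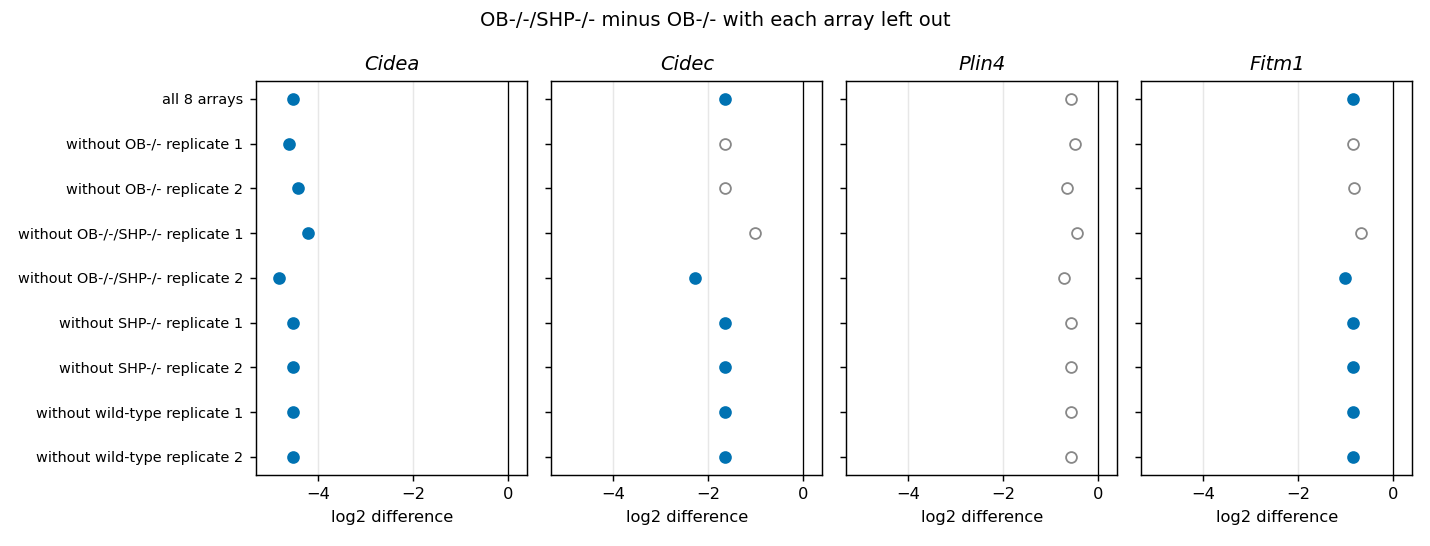
Log2 difference of OB-/-/SHP-/- minus OB-/- (horizontal axis) for Cidea, Cidec, Plin4 and Fitm1 with all 8 arrays and with each array left out in turn; filled points passed the test over all genes. Cidea stays between -4.82 and -4.22 and passes throughout, Cidec and Fitm1 lose the call without either OB-/- array or OB-/-/SHP-/- replicate 1, and Plin4 does not pass.

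Genes that followed Cidea most closely over the 8 arrays, by Pearson's r among 1734 genes with a range of at least 1 log2 unit, were Cbr3 (r = 0.994), Zg16 (0.993), Cyp2b10 (0.989), Clps (0.988) and Bex4 (0.985). Zg16 and Clps are genes of pancreatic acinar cells, and most of the pancreas marker list moved as Cidea did in 2 comparisons. Of its 7 measured genes 5 rose and 1, Cela1, fell in OB-/- against wild-type, and 4 fell and 0 rose in OB-/-/SHP-/- against OB-/-. Over all genes 7.58% rose and 9.36% fell in the former, and 0.88% fell and 1.26% rose in the latter. With leptin loss in the absence of SHP, where Cidea rose by 2.23, 2 of the 7 rose and 1 fell, with a median difference of 0.16. Of all genes 4.95% rose and 5.62% fell there. The sum of the linear values of these 7 genes was 348 on both wild-type arrays, 314 to 346 on the SHP-/- ones, 520 to 832 on the OB-/- ones and 243 to 249 on the double knockout ones. Cela1 weighs most in the wild-type and double knockout sums, with means of 8.03 and 6.97 on the log2 scale. In OB-/-/SHP-/- minus wild-type, where Cidea was 1.88 higher, 2 of the 7 rose, Clps by 1.18 and Prss2 by 0.93. Cela1 alone fell there, where 7.6% of all genes rose and 8.25% fell. On OB-/- replicates 1 and 2, the trypsinogen Prss2 read 7.87 and 7.00, Clps 7.95 and 7.15, and Cidea 10.07 and 10.27. The Cidea gap of 0.20 lay within its replicate gaps in the other genotypes, 0.09 to 0.60, and this is 1 pair of arrays. The part of this tissue in the Cidea values was not tested. For Cidec the closest genes were Aqp8 (r = 0.992), Birc5 (0.992), Mogat1 (0.987), Ly6d (0.983) and Ces2e (0.983). For Fitm1 they were Aqp8 (0.992), Pygl (0.991), the malic enzyme Me1 (0.991), Rnd2 (0.990) and Gstm2 (0.990). All arrays of a genotype share its effects, so these values describe the shared order of genotypes.

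Because Cidea, Cidec and Plin4 are known from fat cells, markers of fat were read on the same arrays. The defining adipocyte gene Adipoq lay between 2.79 and 3.07 on every array and the brown fat gene Ucp1 between 3.94 and 4.48, both near the low end of the table. Of 6 measured adipocyte markers 2 rose in OB-/- against wild-type, Fabp4 and Retn (named after their values were seen), and 1, Fabp4, fell in the double knockout against OB-/-. Of all genes 7.58% rose in the former and 0.88% fell in the latter. In OB-/-/SHP-/- against SHP-/-, 3 of the 6 rose and 0 fell, with a median difference of 0.49. There 4.95% of all genes rose and 5.62% fell. Against wild-type, 3 of the 6 rose and 0 fell in the double knockout, where 7.6% of all genes rose and 8.25% fell. The sum of the 6 linear values was 285 to 326 on the wild-type arrays, 274 to 334 on the SHP-/- ones, 502 to 530 on the OB-/- ones and 428 to 453 on the double knockout ones. Of 5 brown fat markers limma called 0 in any comparison, where up to 16.9% of all genes passed, with 1 at an unadjusted p below 0.05 (OB-/-/SHP-/- minus SHP-/-). Their sums were 812 to 893, 461 to 1249, 603 to 652 and 512 to 649 in the same order of genotypes. Elovl3 makes up most of each sum and read 8.59 and 10.21 on the SHP-/- arrays. Ucp1, Cox7a1, Cox8b and Dio2 read between 3.62 and 5.05, so the sums say little about them.

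Markers of the other cells of a liver sample moved as well. For the counts below, 7.58% of all genes rose and 9.36% fell in OB-/- against wild-type. In OB-/-/SHP-/- against OB-/-, 1.26% rose and 0.88% fell. Of 7 macrophage markers 6 rose in OB-/- against wild-type and 2 in OB-/-/SHP-/- against OB-/-. Their sums were 982 to 1018 in wild-type, 1858 to 2497 in SHP-/-, 2667 to 2685 in OB-/- and 3177 to 4118 in the double knockout. The 2 that rose in the double knockout against OB-/- were Mpeg1 (8.86 to 10.55) and Marco (5.25 to 6.84). The median difference of the 7 was -0.06 there, and the higher sum comes mainly from Mpeg1. Sums below follow the same order of genotypes. Of 6 stellate markers 2 rose in OB-/- and 1 fell in the double knockout against OB-/- (sums 1052 to 1084, 1222 to 1415, 1499.8 to 1529.5 and 1493 to 1664). Of 6 hepatocyte markers 3 fell in OB-/- (sums 59025 to 61755, 60307 to 60751, 53451 to 56647 and 58521 to 60406), and of 6 skeletal muscle markers 1 fell (sums 176 to 203, 142 to 146, 148 to 168 and 142 to 176). The part of these cell types in the lipid droplet values was not tested.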

How the data were processed

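Liver RNA of 4 genotypes was measured on 8 arrays, and groups and replicate numbers came from the sample titles. The submitters' processing notes name R 2.15.0. The values the authors deposited were taken as log2 expression values from their range of 2.20 to 14.19. No source used here states the log base, background correction or summarisation. No pseudocount or filter was applied. Of 22690 probe sets, 64 controls were left out and 20380 named 1 gene, giving 12393 genes, each by its brightest probe set on average. Gene IDs of 20351 probe sets matched the RefSeq table of GRCm38.p6.

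Genotype means were fitted over all 8 arrays in R 4.3.3 with limma 3.58.1 (eBayes, 4 residual and 7.16 prior degrees of freedom, two-sided tests, Benjamini-Hochberg over all genes, threshold 0.05). The script was tested on simulated data. Arrays give no counts, so their number limits the precision.

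The 9 genes and the lists were chosen with earlier results of these data known. Every one of the 9 was named, with up to 4 called genes per list by smallest adjusted p in OB-/- minus wild-type and in OB-/-/SHP-/- minus OB-/- (or 3 by highest mean where none was called), and the 5 genes most like Cidea, Cidec and Fitm1. Alternatives were quantile normalisation, equal medians, a filter at the 40th percentile (4.83), trend and robust eBayes, the mean of probe sets, no x_at or s_at probe sets, a replicate block, fits to only those arrays compared, the further probe set, each array left out and, added after seeing the data, both arrays that stood apart left out.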

Additional observations from a re-analysis of the deposited data

Results flagged for a closer look

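The difference in Cidea with SHP loss was unequal between leptin backgrounds on the log2 scale: it was -0.35 in leptin-intact and -4.52 in leptin-null mice, an interaction of -4.17 ± 0.29 on the log2 scale (limma adjusted p = 4.63e-05; 1.7e-03 at most with any single array left out). In leptin-intact mice Cidea was near the low end of the scale in both genotypes (means of 3.77 and 3.42, at the 14.8 and 9.07 percentiles of all genes), so no large fall could have been seen there and the size of the interaction rests on that limit. The OB-/-/SHP-/- arrays lay below the OB-/- arrays in 2 of 2 cases. The effect on Ces1g also differed, at 1.23 in leptin-intact and -0.35 in leptin-null mice, an interaction of -1.59 ± 0.24 (limma adjusted p = 0.0118; up to 0.0987 with an array left out).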

How the results depend on the processing

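Over 856 repeats of a member's difference under an alternative, 807 kept direction and side of the threshold, 25 lost a call and 24 changed sign, the last always below the threshold. The calls in OB-/- minus wild-type, OB-/-/SHP-/- minus wild-type, the interaction and SHP-/- minus wild-type stayed at 4, 4, 1 and 0 members under every alternative run. There were 4 to 6 in OB-/-/SHP-/- minus SHP-/-. For OB-/-/SHP-/- minus OB-/- there were 1 to 3 with an array left out and 1 without both arrays that stood apart, in each case at least Cidea.

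Uncalled values that changed sign were Pnpla2 in OB-/- minus wild-type (0.0703 with the mean of probe sets, 0.21 by its further probe set, -0.21 to 0.076 with an array left out) and Rab18 in OB-/-/SHP-/- minus OB-/- (0.0456 with the mean of probe sets, -0.23 to 0.0179 with an array left out). Without both arrays that stood apart, Plin2 read 0.0678 and Hsd17b11 0.0178 in OB-/-/SHP-/- minus OB-/-, Plin2 0.14 in SHP-/- minus wild-type, and the interactions of Cideb and Plin2 were -0.00773 and -0.0702. With an array left out, OB-/-/SHP-/- minus OB-/- ranged from -0.14 to 0.0678 for Plin2, -0.19 to 0.0178 for Hsd17b11 and -0.056 to 0.19 for Cideb, and SHP-/- minus wild-type from -0.41 to 0.14 for Plin2 and -0.22 to 0.18 for Plin4. The interactions ranged from -0.12 to 0.13 for Cideb and -0.17 to 0.37 for Plin2, OB-/-/SHP-/- minus SHP-/- from -0.0312 to 0.22 for Cideb, and OB-/-/SHP-/- minus wild-type from -0.14 to 0.46 for G0s2. The cause was not tested.

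Counts over all genes with an array left out were 956 to 2234 in OB-/- minus wild-type (2100 with all), 600 to 1307 in OB-/-/SHP-/- minus SHP-/- (1311), 80 to 298 in OB-/-/SHP-/- minus OB-/- (265), 5 to 95 in SHP-/- minus wild-type (40), 32 to 113 for the interaction (68) and 820 to 1998 in OB-/-/SHP-/- minus wild-type (1965). In a fit to the arrays compared they were 615 in OB-/-/SHP-/- minus SHP-/- and 23 in SHP-/- minus wild-type, which was 68 with trend. Without both arrays that stood apart they were 1121 for OB-/- minus wild-type, 632 with SHP absent, 119 for SHP loss in leptin-null mice and 39 for the interaction.

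The replicate numbers are shared between genotypes, but nothing shows that they pair animals: over 6 genotype pairs, deviations of same-numbered arrays correlated at -0.11 to 0.20. With the replicate block the member counts were 4, 6, 3, 0, 1 and 4, the same as without it in all 6 comparisons. With 2 arrays per genotype, differences near 0.5 on the log2 scale passed for some genes (Hsd17b13, Pcyt1a and Bscl2 in OB-/- minus wild-type) and not for others (Plin4 and Plin5 in OB-/-/SHP-/- minus OB-/-, G0s2 in OB-/- minus wild-type).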

Other observations

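In wild-type, SHP-/- and OB-/-/SHP-/- most lipid droplet genes read higher in replicate 2, and in OB-/- they did not. In OB-/-/SHP-/-, 7 of 8 read higher in replicate 2 (median 0.29 on the log2 scale), where 57.9% of all genes did. The gaps were 1.25 for Cidec and 0.60 for Cidea. In SHP-/- it was also 7 of 8 (median 0.23, against 54.6% of all genes), in wild-type 6 of 8 (0.17, against 39.9%) and in OB-/- 3 of 8 (-0.09, against 47.8%). These values come from 1 pair of arrays per genotype and were not tested.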
